A study of Mus musculus with 7 samples.

Results

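The collagen genes are described here across the cells of mouse hippocampal cultures. Members were all genes of the deposited tables whose symbol is Col, 1 or 2 digits, the letter a and a number (Col1a1 to Col28a1). They came to 44 of 31053 genes and held 710613 UMIs (unique molecular identifiers, each standing for 1 captured RNA molecule) in the cells that were kept. Every member had at least 1 UMI. The cultures were made from hippocampi of newborn (P0) mice, dissociated with trypsin and grown on poly-D-lysine in medium with B-27 and serum, and the labels name no strain, genotype or treatment. Single-cell libraries (10x 3′ v2, which tags the 3′ end of each RNA) were made on day in vitro (DIV) 1, with 1 library, and on DIV3, DIV5 and DIV7, with 2 libraries each. Of 28846 cell barcodes, 26709 were kept, each with 500 or more genes detected and no more than 10% of its UMIs from mitochondrial genes. The labels do not say whether the 2 libraries of a day came from separate animals or cultures, so a p-value here speaks only of how far these libraries scatter, and that scatter may be technical.

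Collagens are secreted or membrane proteins built of 3 chains wound into a triple helix, and they are named by type and chain. Fibrillar collagens (types I, II, III, V, XI, XXVII) form rope-like fibrils, type IV chains form the sheet of basement membranes, type VI forms beaded filaments, type VIII forms a network, and fibril-associated collagens (types IX, XII, XIV, XVI and others) sit on fibrils. In the brain, fibrillar collagens are known mainly from the meninges and vessel walls, and type IV from the basement membranes around vessels and below the pia, while neurons and glia in the tissue proper hold little fibrillar collagen.

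The 2 best-known chain pairs of basement membrane collagen lie head to head in the genome. Their promoter windows are printed because the partners' values are compared throughout the results. Each window runs from 250 bases before to 50 bases after the annotated start of the gene, 5′ to 3′ on the gene's own strand, from RefSeq on GRCm38.p6. That build is not the build of the deposited files, so the coordinates serve only these windows. Col4a1 (ENSMUSG00000031502) is at chr8:11312777-11313076 on the minus strand and Col4a2 (ENSMUSG00000031503) at chr8:11312555-11312854 on the plus strand. Col4a5 (ENSMUSG00000031274) is at chrX:141475169-141475468 on the plus strand and Col4a6 (ENSMUSG00000031273) at chrX:141474027-141474326 on the minus strand. Capitals mark the CCAAT box (CCAAT) and the GC box (GGGCGG) read on either strand, so that ATTGG and CCGCCC are the same motifs on the other strand. No 2 of these matches overlap within a window.
Col4a1: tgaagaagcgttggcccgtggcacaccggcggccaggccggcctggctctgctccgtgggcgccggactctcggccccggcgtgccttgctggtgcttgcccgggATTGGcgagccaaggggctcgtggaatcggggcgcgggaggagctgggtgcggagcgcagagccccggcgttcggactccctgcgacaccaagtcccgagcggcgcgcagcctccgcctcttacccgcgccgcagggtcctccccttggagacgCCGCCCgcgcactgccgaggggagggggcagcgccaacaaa
Col4a2: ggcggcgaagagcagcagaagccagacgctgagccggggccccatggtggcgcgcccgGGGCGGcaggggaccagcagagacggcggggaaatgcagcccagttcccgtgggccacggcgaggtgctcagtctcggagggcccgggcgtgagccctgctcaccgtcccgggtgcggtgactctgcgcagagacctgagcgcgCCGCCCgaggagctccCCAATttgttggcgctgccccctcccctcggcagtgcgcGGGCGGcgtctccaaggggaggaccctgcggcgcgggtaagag
Col4a5: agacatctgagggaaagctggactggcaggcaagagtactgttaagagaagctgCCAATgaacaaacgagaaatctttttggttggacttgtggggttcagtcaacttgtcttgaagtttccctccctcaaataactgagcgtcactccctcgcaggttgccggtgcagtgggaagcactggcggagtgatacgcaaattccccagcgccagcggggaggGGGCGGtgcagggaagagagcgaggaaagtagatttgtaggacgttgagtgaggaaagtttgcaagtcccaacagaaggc
Col4a6: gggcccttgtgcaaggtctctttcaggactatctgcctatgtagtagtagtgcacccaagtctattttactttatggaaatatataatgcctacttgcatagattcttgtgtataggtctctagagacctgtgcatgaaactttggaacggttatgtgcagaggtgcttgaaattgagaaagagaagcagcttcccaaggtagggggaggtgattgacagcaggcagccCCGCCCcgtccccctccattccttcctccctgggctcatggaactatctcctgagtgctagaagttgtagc

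The starts of Col4a1 and Col4a2 lie 21 bases apart, and their windows share 78 bases. The GC box 9 bases after the start of Col4a1 and that 7 bases after the start of Col4a2 are the same 6 bases, read from the 2 strands. The starts of Col4a5 and Col4a6 lie 1343 bases apart and their windows share none. A CCAAT box was found in the windows of Col4a1, Col4a2 and Col4a5 and a GC box in all 4. Among 32851 windows of this length, 37.4% held a CCAAT box, 35.7% a GC box and 13.6% the letters TATAAA, which none of these 4 windows held. A window was listed for 35 of the 44 collagens.

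Cells were clustered without the collagen genes, and clusters were named "-like" from marker genes. The library DIV3 replicate 1 stood apart from the others. It was the deepest, with 114119537 UMIs against 36226566 to 63181816 in the other 6, and it held 1655 of the 1734 cells of a glial cluster led by Lcn2 and 1110 of the 1166 cells of a cycling cluster. The fibroblast-like class joins 2 clusters, one with Mgp and Dcn (decorin) among its leading genes and one led by Crct1 and Timp1. In DIV3 replicate 1 only 3 of 445 fibroblast-like cells (0.674%) were in the Dcn- and Mgp-led cluster, against 54.6% in DIV3 replicate 2 and 82.8% to 93.8% in the 4 later libraries. Of 12 fibroblast markers, 4 reached 50 CPM (UMIs per 1000000 UMIs of the group) in this class, and their summed level per library was 1023 to 2452 CPM. Mural-like cells (pericytes and vessel smooth muscle, with 5 of 13 markers at 50 CPM) reached the 20 cells needed for a test in 3 libraries, 82 and 30 at DIV3 and 25 at DIV5. Choroid plexus-like cells rested on 3 of 12 markers at 50 CPM, and glial markers were also high in them. At DIV1 only 8 fibroblast-like cells were found. Among the clusters left without a name, cluster 1 held 144 cells led by Tfpi2 and Ptgds. It scored best for the fibroblast list, but none of that list was among its 10 leading genes. Its fibroblast markers (4 of 12 at 50 CPM) summed to 1672 CPM, against 1537 CPM in the pooled fibroblast-like class. Its mural markers (4 of 13 at 50 CPM) summed to 1542 CPM. Cluster 17 held 45 cells with both endothelial genes (9 of 10 markers at 50 CPM) and haemoglobin genes. All cells of clusters 1 and 17 came from DIV1. Glial markers were also high in the unnamed clusters 2, 14 and 23, at 16322.5, 7827 and 10558 CPM summed. They summed to 14812 CPM in radial glia- or astrocyte-like cells. In cluster 14 the cycling markers summed to 3595 CPM, and in cluster 23 the ciliated markers to 3940 CPM. Pairs of libraries shared few cell barcodes, from 10 to 34.

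Of the 44 collagens, 27 reached 20 CPM in a named class, and Col5a3 reached it in cluster 1, at 78 CPM. Over all libraries the class with the largest mean share of a gene's UMIs was the fibroblast-like class for 14 of the 27, radial glia- or astrocyte-like cells for 12 and microglia- or macrophage-like cells for 1. Ranked by level among the named classes, 9 were highest in fibroblast-like, 5 in mural-like, and 4 each in choroid plexus-like and oligodendrocyte lineage-like cells. Another 3 were highest in ciliated-like, and 1 each in cycling and microglia- or macrophage-like cells. Some members stood higher in an unnamed cluster. Among them were Col2a1 and Col12a1 in cluster 14, at 41.2 and 146 CPM, and Col4a4 in cluster 23, at 37.2 CPM. A share depends on how many cells of a class were captured, and the heat map of pooled levels shows the level per class. The shares of the named classes leave out the cells of unnamed clusters.

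**Figure D1:**
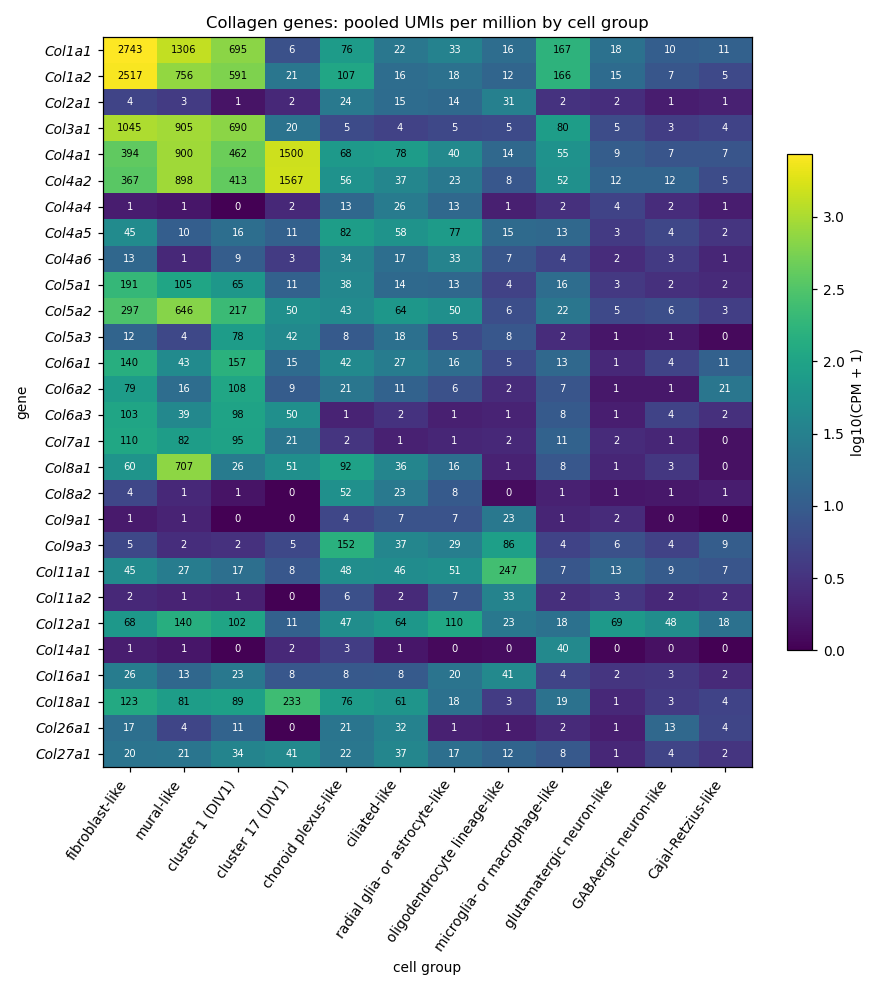
Pooled level of 28 collagens (rows) in 12 cell groups (columns), in CPM; colour is log10(CPM + 1) and the printed number is the CPM rounded to a whole number. Fibroblast-like and mural-like columns are high for types I, III, IV and V, Col8a1 stands at 707 CPM in mural-like cells, Col11a1 at 247 CPM in the oligodendrocyte lineage and Col14a1 at 40.4 CPM in microglia- or macrophage-like cells.

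Type I and type III collagen, the main fibrillar collagens of connective tissue, came almost wholly from fibroblast-like cells after DIV1. Col1a1 stood at 2743 CPM, Col1a2 at 2517 CPM and Col3a1 at 1045 CPM there, pooled over libraries. Their share of the gene's UMIs was 91.9% ± 2.8 for Col1a1, 93.8% ± 2.1 for Col1a2 and 92.0% ± 4.4 for Col3a1 (mean ± SD over the 6 libraries of DIV3 to DIV7). At DIV1, where fibroblast-like cells were few, cluster 1 held 76.0% of Col1a1 UMIs (exact 95% binomial interval 73.9% to 77.9%), 82.2% of Col1a2 UMIs (80.1% to 84.2%) and 89.3% of Col3a1 UMIs (87.6% to 90.8%). These intervals cover counting error only. Mural-like cells also held these transcripts, at 1306 CPM for Col1a1, 756 CPM for Col1a2 and 905 CPM for Col3a1 pooled over libraries. Only 158 such cells were captured, so their share was small. Type I reads were lower in the classes given next. In glutamatergic neuron-like cells Col1a1 was at 0.670% of its fibroblast-like level, Col1a2 at 0.603% and Col3a1 at 0.517%, near the fibroblast markers Mgp (0.741%) and Dcn (0.828%) in the same cells, at median depths of 13128 UMIs per neuron-like and 24998 per fibroblast-like cell. In microglia- or macrophage-like cells the 3 genes stood at 6.41%, 6.99% and 7.96%, beside 8.71% for Mgp and 9.92% for Dcn. In both classes the 3 collagens stood below both markers on this scale, and where these reads come from was not tested. In choroid plexus-like cells Col1a2 was higher, at 4.29% of the fibroblast-like level, against 1.14% for Mgp and 1.79% for Dcn, and ranged from 41.3 to 262 CPM between libraries.

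The minor fibrillar chains had wider sources. Col5a1, which starts type I fibrils, was at 191 CPM in fibroblast-like and 105 CPM in mural-like cells. Its partner Col5a2 was at 297 CPM in fibroblast-like, 646 CPM in mural-like, 64.1 CPM in ciliated-like and 50.03 CPM in radial glia- or astrocyte-like cells. Col11a1, a type XI chain best known from cartilage, was highest in oligodendrocyte lineage-like cells, with 99.3 CPM at DIV1, 304 and 353 CPM at DIV3, 311 and 133 CPM at DIV5 and 160 CPM in the 1 DIV7 library with enough cells. Every one of these libraries lay above the pooled level of fibroblast-like cells (44.9 CPM) and of radial glia- or astrocyte-like cells (50.8 CPM). The same class had the highest pooled level of Col11a2 (33.2 CPM), of Col9a1 (22.8 CPM), of Col16a1 (40.6 CPM) and, below 20 CPM, of Col20a1 (11.3 CPM). Col9a3 changed its leading class with the day. It was at 103 and 89.2 CPM in oligodendrocyte lineage-like and 24.3 and 23.4 CPM in choroid plexus-like cells at DIV3, and at 84.7 CPM (1 library) and 305 and 316 CPM in the same classes at DIV7. Col2a1, the cartilage fibril chain, stood at 31.1 CPM in cycling and 30.6 CPM in oligodendrocyte lineage-like cells.

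Basement membrane chains split by pair. Col4a1 and Col4a2, the chains found in nearly all basement membranes, were at 900 and 898 CPM in mural-like and 394 and 367 CPM in fibroblast-like cells. In cluster 17, the DIV1 cells with endothelial and haemoglobin genes, they were at 1500 and 1567 CPM. Pooled over libraries, the X-linked pair Col4a5 and Col4a6 was highest in the unnamed cluster 2, where glial markers were high, at 100 and 43.3 CPM. Of the named classes, choroid plexus-like cells stood at 82.2 and 34.3 CPM and radial glia- or astrocyte-like cells at 76.9 and 33.3 CPM. Fibroblast-like cells stood at 44.7 and 13.3 CPM. Which of the first 2 classes was higher changed between libraries, and at DIV7 Col4a5 in fibroblast-like cells (96.3 and 104 CPM) overlapped the level in radial glia- or astrocyte-like cells (131 and 97.5 CPM). The number of Col4a5 UMIs per Col4a1 UMI was 1.67 to 3.73 over 7 libraries in radial glia- or astrocyte-like cells and 0.0496 to 0.170 over 6 libraries in fibroblast-like cells, so the 2 ranges did not overlap. Both genes are tagged at the 3′ end once per molecule, and the ratio is compared only between classes. Col4a4, a chain of the kidney and cochlear network, was at 25.8 CPM in ciliated-like cells, while Col4a3 had 71 UMIs in all.

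The chains of the common type VI filament and the type VII chain had most of their UMIs in fibroblast-like cells after DIV1. Col6a1, Col6a2 and Col6a3, the 3 chains of that filament, were at 140, 79.1 and 103 CPM in fibroblast-like cells. These cells held 91.6% ± 4.4 of Col6a3 UMIs from DIV3 to DIV7. Col6a1 and Col6a2 stood higher in the unnamed cluster 1 of DIV1, at 157 and 108 CPM. Col7a1, the anchoring fibril chain known from skin, was at 110 CPM in fibroblast-like and 82.3 CPM in mural-like cells. Col18a1, the basement membrane collagen that carries endostatin, was at 123 CPM in fibroblast-like, 81.4 CPM in mural-like and 76.4 CPM in choroid plexus-like cells, and at 233 CPM in cluster 17. Col8a1, a network collagen of vessel walls, was at 707 CPM in mural-like cells, and Col8a2 was highest in choroid plexus-like cells, at 51.8 CPM.

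Col12a1, a fibril-associated collagen, was shared among neural and mesenchymal classes. It was at 140 CPM in mural-like, 110 CPM in radial glia- or astrocyte-like, 69.2 CPM in glutamatergic neuron-like and 68.0 CPM in fibroblast-like cells. In glutamatergic neuron-like cells from DIV3 to DIV7 it stood at 99.0% of its fibroblast-like level in the pooled sums, beside 0.741% for Mgp and 0.828% for Dcn. The 6 libraries ranged from 33.2% to 159%. The gene was lower at DIV7 than at DIV3 in the neurons (49.3 and 44.0 against 70.9 and 67.1 CPM) and higher in fibroblast-like cells (136 and 133 against 44.5 and 59.3 CPM). With each cell thinned to 3000 UMIs, 19.9% of 2427 glutamatergic neuron-like cells and 18.0% of 2032 fibroblast-like cells had a Col12a1 UMI, with 124 and 42 shallower cells left out. Unthinned, the shares were 46.0% and 69.0%. In microglia- or macrophage-like cells the thinned share was 2.92%.

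**Figure D2:**
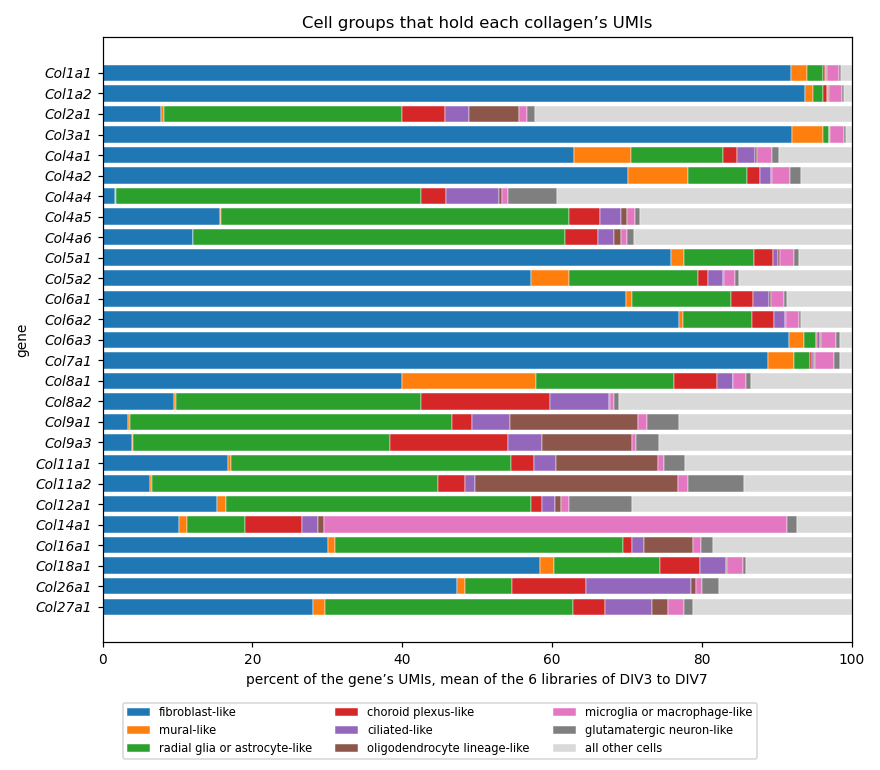
Mean percent of each gene's UMIs that lay in each cell class (horizontal stacked bars, 27 collagens), over the 6 libraries of DIV3 to DIV7; grey is all other cells, unnamed clusters included. Bars for Col1a1, Col1a2, Col3a1, Col6a3 and Col7a1 are mostly fibroblast-like, Col4a5, Col4a6 and Col12a1 are led by radial glia- or astrocyte-like cells, and Col14a1 by microglia- or macrophage-like cells.

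Col14a1, a fibril-associated collagen usually found beside type I fibrils, was the 1 member led by microglia- or macrophage-like cells, at 40.4 CPM. The level there was 1.15 CPM at DIV1, 1.29 and 10.8 CPM at DIV3, 20.7 and 36.2 CPM at DIV5, and 84.7 and 65.2 CPM at DIV7. Both DIV7 libraries were above all others. A Col14a1 UMI was seen in 316 of 946 cells of this class (33.4%, exact 95% interval 30.4% to 36.5%) and in 47 of 2074 fibroblast-like cells (2.27%, 1.67% to 3.00%), although the latter were deeper, at a median of 24998 against 14117 UMIs per cell. These intervals cover counting error over the pooled cells only, and not the spread between libraries. Thinned to 3000 UMIs, the shares were 11.9% and 0.443%. Of the 316 cells, 100% had a UMI of C1qb and 99.7% of Csf1r, genes of microglia and macrophages, against 96.0% and 84.0% of the other 630 cells. Pf4 and Mrc1, known from macrophages at the brain's borders, were seen in 91.8% and 37.0% against 73.8% and 20.6%, and the microglial gene P2ry12 in 35.1% against 19.4%, at median depths of 14923.5 and 13732.5 UMIs. By level Pf4 was not higher in the 316 cells, at 989 against 1032 CPM. Mrc1 (40.2 against 24.3 CPM) and P2ry12 (32.7 against 16.0 CPM) were higher there. The sets of cells were not matched for day. Fibroblast transcripts were seen at like shares in both sets, with Col1a1 in 16.5% against 17.3% and Dcn in 4.11% against 4.29%. Among the 316, 26 were in the top doublet scores. The class was not fitted alone, so its levels by day carry no test of their own.

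The 17 members under 20 CPM in every named class had between 7 UMIs (Col28a1) and 2266 UMIs (Col5a3) in all cells. Pooled over libraries, Col6a5 was highest in ciliated-like cells (13.0 CPM), Col25a1, a membrane collagen, in GABAergic neuron-like cells (15.9 CPM), Col10a1 in the same class (7.18 CPM, from 0 to 32.1 CPM between libraries), and Col13a1 and Col9a2 in fibroblast-like cells (5.45 and 4.32 CPM).

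Fibroblast-like and mural-like cells were compared within the 3 libraries that held at least 20 cells of each, to ask which collagens mark one perivascular class against the other. Fibroblast-like cells had more type I, type V (Col5a1) and X-linked type IV chains, and mural-like cells more Col8a1, more Col4a1 and Col4a2 and more Col5a2. Of 25 collagens tested, 8 were higher in fibroblast-like cells, where 11.2% of all 11426 genes were, and 5 higher in mural-like cells, where 12% were (edgeR quasi-likelihood test with library as a block, Benjamini-Hochberg adjusted p under 0.05). Col8a1 was at 57.6, 40.6 and 56.8 CPM in fibroblast-like cells and at 652, 765 and 820 CPM in mural-like cells of the same libraries. All 3 mural-like values were above all 3 fibroblast-like values, with a log2 difference of -3.75 ± 0.16 (SE, fibroblast-like minus mural-like, adjusted p = 1.4e-10). Col4a1 was at 160, 444 and 378 CPM in fibroblast-like and at 648, 1386 and 1056 CPM in mural-like cells, again with no overlap, and its log2 difference was -1.61 ± 0.15 (adjusted p = 7.3e-07).

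The other mural-like excess was in Col4a2 (log2 difference -1.47 ± 0.15), Col12a1 (-1.37 ± 0.15) and Col5a2 (-1.09 ± 0.13). In the other direction, Col1a2 was at 1917, 2068 and 3213 CPM in fibroblast-like and at 875, 544 and 771 CPM in mural-like cells, and its log2 difference was 1.80 ± 0.19 (adjusted p = 1.1e-05). Col1a1 differed by 1.08 ± 0.15 (adjusted p = 4.2e-05), with mural-like values of 981, 895 and 2571 CPM that overlapped the fibroblast-like values of 1812, 2349 and 4070 CPM between libraries but were lower in each. Col4a5 (1.80 ± 0.32), Col4a6 (2.47 ± 0.58), Col6a2 (2.07 ± 0.40), Col5a1 (0.91 ± 0.14), Col16a1 (0.87 ± 0.29) and Col11a1 (0.83 ± 0.28) were also higher in fibroblast-like cells. Col3a1 was not called, at 0.11 ± 0.22. Mural markers summed to 7163 to 19881 CPM in mural-like cells and to 2129 to 2903 CPM in fibroblast-like cells, and fibroblast markers to 376 to 923 CPM in mural-like cells. Their part in these differences was not tested. The share of the Dcn- and Mgp-led cluster among the fibroblast-like cells differed between the 3 libraries, as given above. The call of Col16a1 was lost without DIV3 replicate 1 (0.81, adjusted p = 0.23) or DIV5 replicate 1 (0.69, adjusted p = 0.12), and that of Col11a1 without DIV3 replicate 2 (0.62, adjusted p = 0.28) or DIV5 replicate 1 (0.58, adjusted p = 0.14).

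**Figure D3:**
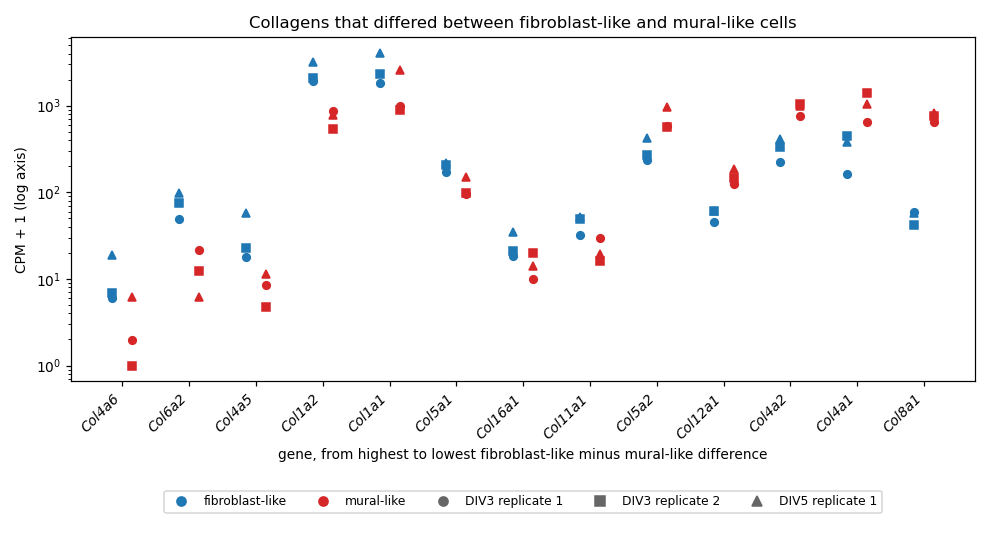
Levels (CPM + 1, log axis) of the 13 collagens that differed between fibroblast-like (blue) and mural-like (red) cells, each point 1 of the 3 libraries that held both, by marker shape. Genes run from the largest fibroblast-like excess at left to the largest mural-like excess at right, Col8a1, where mural-like values are 652 to 820 CPM.

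From DIV3 to DIV7 collagen transcripts rose in fibroblast-like cells. All collagens together made up 5539 and 7258 CPM of fibroblast-like RNA in the DIV3 libraries, 11535 and 10145 CPM at DIV5 and 11739 and 12373 CPM at DIV7. Of 31 collagens that passed the filter on low counts (of 44), 18 rose and none fell, where 11.7% of all 12664 genes tested rose and 11.9% fell (edgeR quasi-likelihood test on sums per library, DIV7 minus DIV3, 6 libraries, adjusted p under 0.05). Col5a1 was at 169 and 204 CPM at DIV3 and 228 and 186 CPM at DIV7, and it was among the 13 not called. The median log2 difference was 1.15 over the 31 collagens and 0.04 over all genes. By another measure, the slope per day, 13 of the 31 rose, where 10.8% of all genes rose. That slope used the 6 libraries of DIV3 to DIV7, since DIV1 had only 8 fibroblast-like cells.

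Basement membrane chains had some of the larger rises, though Col4a6 was under 20 CPM in this class when pooled over libraries. Col4a5 was at 16.7 and 22.02 CPM at DIV3, 57.1 and 75.0 CPM at DIV5 and 96.3 and 104 CPM at DIV7, so each day lay above the one before. Its log2 difference from DIV3 to DIV7 was 2.16 ± 0.22 (SE, adjusted p = 0.0042). Its neighbour Col4a6 went from 5.03 and 5.83 CPM to 26.5 and 32.4 CPM, a log2 difference of 2.22 ± 0.24 (adjusted p = 0.0042). Col18a1 was at 38.0 and 58.2 CPM at DIV3, 162 and 211 CPM at DIV5 and 269 and 306 CPM at DIV7, a log2 difference of 2.37 ± 0.24 (adjusted p = 0.0042). Col4a2 rose by less, 0.87 ± 0.24 (adjusted p = 0.033). Col4a1, at 160 and 444 CPM at DIV3 and 567 and 878 CPM at DIV7, had a log2 difference of 1.05 ± 0.46 (adjusted p = 0.14) and was not called. It passed with the replicate number as a block (1.16, adjusted p = 0.0092), without the filter on low counts (0.998, adjusted p = 0.00048) and without DIV3 replicate 2 (1.91, adjusted p = 0.0052), and its difference was 0.51 without DIV3 replicate 1 (adjusted p = 0.31).

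Among fibrillar chains, Col3a1 was at 507 and 799 CPM at DIV3, 1787 and 1383 CPM at DIV5 and 1512 and 1574 CPM at DIV7, with a log2 difference of 1.03 ± 0.24 (adjusted p = 0.021). The DIV5 and DIV7 values overlapped. Col1a2 was at 1917 and 2068 CPM at DIV3 and 3402 and 3382 CPM at DIV7, a log2 difference of 0.55 ± 0.17 (adjusted p = 0.045). This call was lost in 12 of 17 alternatives, among them DESeq2 (0.49, adjusted p = 0.067), no filter on low counts (0.48, adjusted p = 0.093) and each single library left out (adjusted p from 0.053 to 0.21), and the highest adjusted p was 0.43, in the Dcn- and Mgp-led cluster alone. Col1a1, at 1812 and 2349 CPM and then 3760 and 3730 CPM, had a log2 difference of 0.63 ± 0.22 (adjusted p = 0.060), and passed with the replicate number as a block (0.63, adjusted p = 0.046), without the filter on low counts (adjusted p = 0.037) and without DIV5 replicate 1 (0.041) or 2 (0.043). Col27a1 rose by 1.30 ± 0.32 and the fibril-associated Col12a1 by 1.16 ± 0.21 and Col16a1 by 1.15 ± 0.24. Smaller collagens that rose, all under 20 CPM in this class, were Col9a2, Col14a1, Col8a2, Col23a1, Col26a1, Col13a1, Col22a1, Col11a2 and Col9a3, with log2 differences from 1.02 (Col9a3) to 3.15 (Col11a2). The call of Col9a3 was also lost in 12 of 17 alternatives, with an adjusted p of up to 0.30.

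The make-up of the fibroblast-like class moved with the day. Within the Dcn- and Mgp-led cluster alone, 1 DIV3 library (replicate 2) remained and was assumed to vary as the later libraries do, since its own spread could not be measured. There 3 collagens were called: Col4a5 (1.78 ± 0.23, adjusted p = 0.030), Col4a6 (2.08 ± 0.29, adjusted p = 0.037) and Col18a1 (1.63 ± 0.22, adjusted p = 0.034). In that fit 158 of 12624 genes were called, in either direction. Of 33 collagens tested in that cluster, 30 had a positive difference, and Col3a1 was at 0.45 (adjusted p = 0.38). In the 4 libraries with at least 20 cells of both clusters, 18 collagens at 20 CPM or more were compared. Of these, 10 were higher in the Dcn- and Mgp-led cluster in every library and 2, Col11a1 and Col12a1, lower in every library. For Col12a1 the levels nearly tied in DIV7 replicate 2 (132.74 against 132.83 CPM) and were close in DIV3 replicate 2 (58.1 against 60.5 CPM). How many of all genes were higher or lower in every library was not counted. Nor was it counted how many of all genes had a positive difference in the Dcn- and Mgp-led cluster. These counts of collagens therefore have no background beside them. Col18a1 was at 81.6, 189, 226 and 316 CPM in the Dcn- and Mgp-led cluster and at 33.9, 65.0, 114 and 190 CPM in the Crct1-led cluster of these libraries. The summed fibroblast markers were at 1272 and 1023 CPM at DIV3 and 1963 and 2251 CPM at DIV7, and glial markers (6 of 15 at 50 CPM in this class, none at 0) at 597 and 664 CPM and then 1049 and 2343 CPM. Microglial markers (0 of 13 at 50 CPM) were at 11.8 and 12.6 CPM and then 26.0 and 34.8 CPM. The part of these markers in the rises was not tested. Without DIV3 replicate 1, 7 collagens were called, and without DIV7 replicate 1 or 2 there were 5 each time. By slope, 6 were called without DIV3 replicate 1 and 6 without DIV7 replicate 2.

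**Figure D4:**
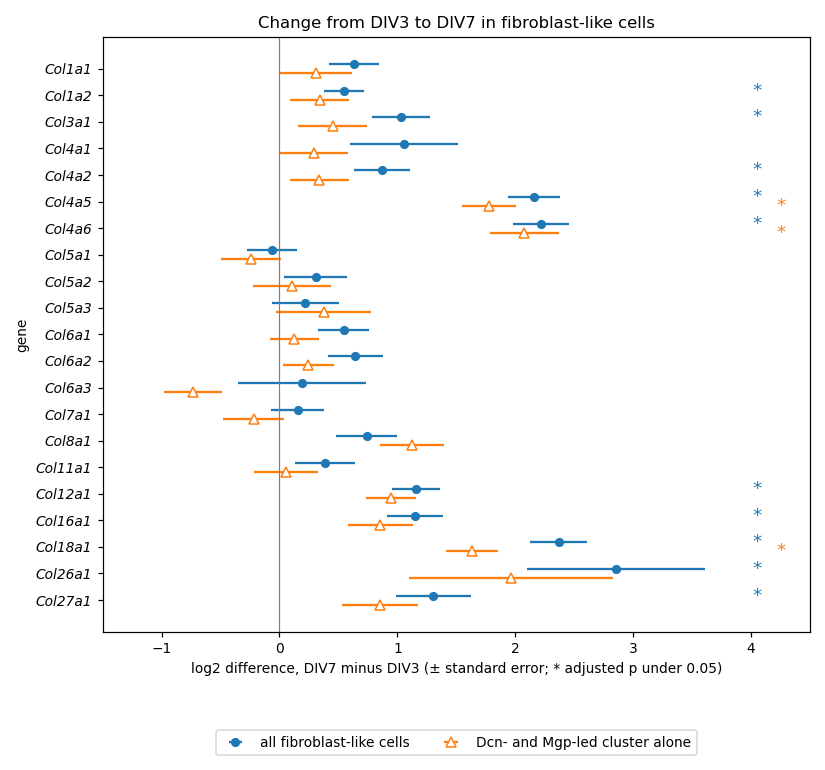
Log2 difference from DIV3 to DIV7 (DIV7 minus DIV3, ± standard error) of the 21 collagens that reached 20 CPM in any group and 10 CPM in fibroblast-like cells, in the whole class (filled blue circles) and in the Dcn- and Mgp-led cluster alone (open orange triangles); stars mark an adjusted p under 0.05. Col4a5, Col4a6 and Col18a1 carry a star in both.

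Radial glia- or astrocyte-like cells had 4 collagens that rose and 1 that fell from DIV3 to DIV7, of 31 tested, where 7.47% of 14499 genes rose and 8.3% fell. Col4a1 was at 15.4 CPM at DIV1, 25.9 and 31.0 CPM at DIV3, 43.9 and 47.4 CPM at DIV5 and 74.1 and 55.7 CPM at DIV7, with no overlap between days. Its log2 difference was 1.07 ± 0.21 (adjusted p = 0.025). Col4a5 was at 57.5 CPM at DIV1, 43.3 and 56.3 CPM at DIV3, 110 and 84.4 CPM at DIV5 and 131 and 97.5 CPM at DIV7, a log2 difference of 1.08 ± 0.23 (adjusted p = 0.029). Here DIV1 lay above both DIV3 libraries, and DIV5 and DIV7 overlapped. Col16a1 rose by 1.77 ± 0.36 and Col27a1 by 1.32 ± 0.34, while Col2a1 went from 14.5 and 37.5 CPM to 9.48 and 4.98 CPM, a log2 difference of -1.96 ± 0.53 (adjusted p = 0.049, and 0.051 with the replicate number as a block). For the slope per day, 8 collagens rose, where 16.4% of all genes did, and they included Col4a1 (0.29 ± 0.04 log2 per day, adjusted p = 0.0015), Col4a5 (0.18 ± 0.05), Col4a6 (0.17 ± 0.05), Col4a4 (0.56 ± 0.14) and Col9a1 (0.57 ± 0.14). The other 3, Col9a3 (0.44 ± 0.13), Col11a1 (0.25 ± 0.08) and Col11a2 (0.94 ± 0.25), completed the count. With the replicate number as a block, the slopes of Col9a3 (adjusted p = 0.11) and Col11a1 (adjusted p = 0.076) were not called.

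Different clusters made up the glial class on different days, with a cluster led by Hes5 and Vgf at DIV1 (860 of 874 cells), the Lcn2-led cluster and cluster 12 leading at DIV3 and clusters 11, 28 and 3 later. From DIV3 to DIV7 the summed glial markers in this class went from 7386 and 7879 to 16845 and 31696 CPM, fibroblast markers (4 of 12 at 50 CPM, none at 0) from 416 and 344 to 626 and 765 CPM, ciliated markers (1 of 12 at 50 CPM, none at 0) from 154 and 170 to 668 and 342 CPM, and mural markers (2 of 13 at 50 CPM, 1 at 0) from 1339 and 1399 to 752 and 372 CPM. Their part in the collagen changes was not tested. Without the Lcn2-led cluster, 3 collagens were called, and Col4a1 (1.42, adjusted p = 0.074) and Col4a5 (1.28, adjusted p = 0.059) were not among them. Without DIV3 replicate 1 none of the 31 was called (0 also among all genes), and without DIV7 replicate 1 or 2 there were 1 and 0. By slope, 4 were called without the DIV1 library, 3 higher and 1 lower, and 2 without DIV7 replicate 2.

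**Figure D5:**
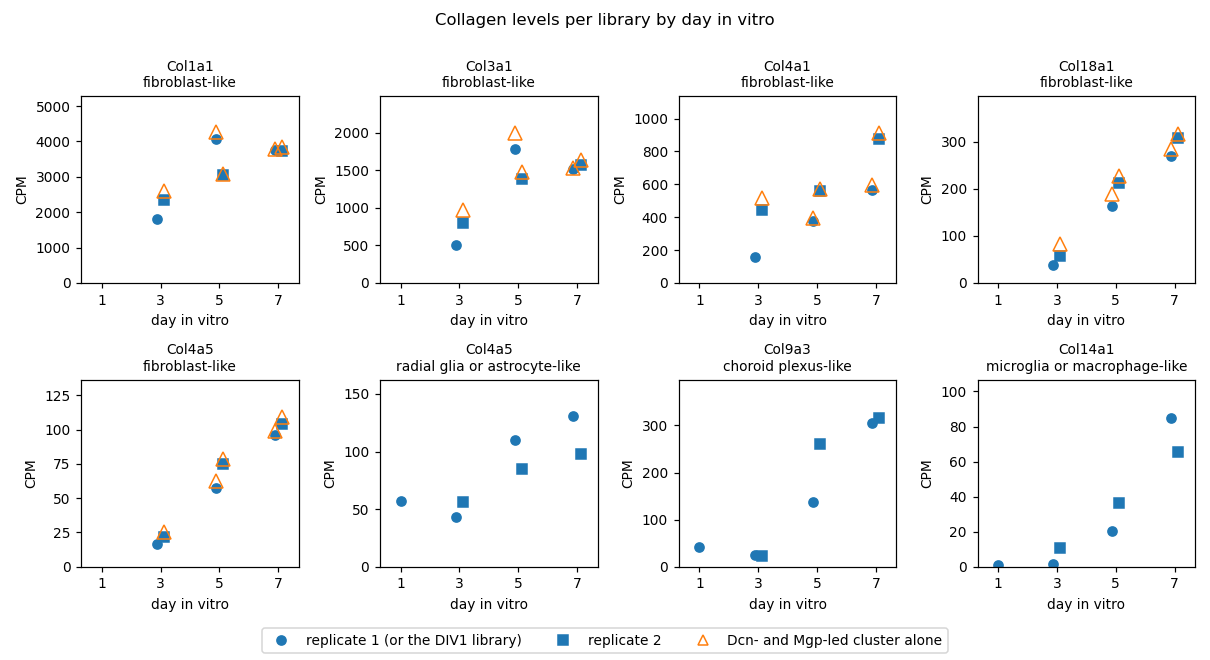
Levels (CPM) per library against the day in vitro for 8 pairs of gene and cell class; circles are replicate 1 or the DIV1 library, squares replicate 2, and open orange triangles the Dcn- and Mgp-led cluster alone. Col4a5 in fibroblast-like cells goes from 16.7 and 22.02 CPM at DIV3 to 96.3 and 104 CPM at DIV7, and Col9a3 in choroid plexus-like cells from 24.3 and 23.4 CPM to 305 and 316 CPM.

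In choroid plexus-like cells, 4 of 23 collagens tested rose from DIV3 to DIV7 and none fell, where 3.29% of 10697 genes rose and 3.66% fell. Col9a3, a fibril-associated chain, was at 41.4 CPM at DIV1, 24.3 and 23.4 CPM at DIV3, 138 and 261 CPM at DIV5 and 305 and 316 CPM at DIV7. Each later day lay above the one before from DIV3 on, and the log2 difference was 3.63 ± 0.39 (adjusted p = 0.0043). Col4a4 went from 4.33 and 2.13 CPM to 21.1 and 18.4 CPM (2.36 ± 0.49), Col11a1 from 26.0 and 23.4 CPM to 101 and 62.0 CPM (1.62 ± 0.31) and Col4a5 from 39.0 and 51.0 CPM to 116 and 112 CPM (1.29 ± 0.27). For the slope, 5 rose, where 5.75% of all genes did: Col9a3, Col11a1, Col4a4, Col4a5 and Col11a2 (0.77 ± 0.19 log2 per day). With the replicate number as a block, 7 collagens were called in the change from DIV3 to DIV7, 6 higher and 1 lower. Col8a1, at 262 and 42.5 CPM at DIV3 and 88.2 and 13.8 CPM at DIV7, differed more within a day than between days. In this class glial markers (13 of 15 at 50 CPM) went from 2720 and 4130 CPM at DIV3 to 7542 and 15936 CPM at DIV7, and choroid plexus markers were at 6532 and 4110 CPM and then 7107 and 3204 CPM, and their part in the rises was not tested. Without DIV3 replicate 1, and likewise without DIV3 replicate 2, none of the 23 was called (at most 1 of all genes was), and without DIV7 replicate 1 or 2 there were 2 and 1. By slope, 1 was called without DIV3 replicate 1, 3 without DIV3 replicate 2, 3 without DIV5 replicate 1, 3 without DIV7 replicate 1 and 1 without DIV7 replicate 2.

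Ciliated-like cells changed cluster between days, from cluster 20 at DIV1 and DIV3 to cluster 24 at DIV5 and DIV7, and only 1 DIV3 library had 20 such cells. That library, DIV3 replicate 1, is the one that stood apart. The test of the change sets it alone against 2 DIV7 libraries and assumes that it varies as the DIV5 and DIV7 libraries do, so the spread at DIV3 was not measured. On that footing, of 28 collagens tested, 6 rose and 12 fell from DIV3 to DIV7, where 14.4% of 12032 genes rose and 12.8% fell. Col8a1 was at 83.0 CPM at DIV1, 82.1 CPM at DIV3, 23.6 and 6.63 CPM at DIV5 and 5.54 and 4.74 CPM at DIV7, a log2 difference of -4.03 ± 0.35 (adjusted p = 7.4e-06). Col18a1 (-2.24 ± 0.29), Col12a1 (-1.73 ± 0.28), Col5a1 (-2.80 ± 0.38), Col5a2 (-1.40 ± 0.33), Col2a1 (-2.62 ± 0.39), Col1a1, Col1a2, Col6a1, Col6a2, Col23a1 and Col4a6 fell as well, the last not with the replicate number as a block (-0.86, adjusted p = 0.076). Those that rose were Col4a4 (2.31 ± 0.44), Col26a1 (2.02 ± 0.37), Col8a2 (2.62 ± 0.40), Col5a3, Col9a1 and Col6a5. Col6a5 was at 0 CPM in the DIV1 library, the DIV3 library and 1 DIV5 library, at 3.22 CPM in the other, and at 17.1 and 34.1 CPM at DIV7. For the slope 5 rose and 6 fell, where 5.88% of all genes rose and 5.21% fell, and with the replicate number as a block none was called. Without DIV7 replicate 1, and likewise without replicate 2, the slope was called for 4. Mural markers in this class fell from 1769 CPM at DIV3 to 145 and 162 CPM at DIV7, and ciliated markers went from 2351 CPM to 9845 and 10017 CPM, and their part in these changes was not tested.

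In glutamatergic neuron-like cells none of 31 collagens was called from DIV3 to DIV7 by edgeR or by DESeq2, where 3.9% of 13304 genes rose and 1.49% fell in edgeR. At an unadjusted p under 0.05 there were 9, and without DIV3 replicate 2 there were 2 calls, both lower. Col12a1 was at 212 CPM at DIV1, 70.9 and 67.1 CPM at DIV3, 59.4 and 86.8 CPM at DIV5 and 49.3 and 44.0 CPM at DIV7, so both DIV7 libraries were lowest. It was the 1 collagen that fell by slope, where 2.61% of all genes did, at -0.29 ± 0.06 log2 per day (adjusted p = 0.024). Without the DIV1 library it was not called, nor with the replicate number as a block (-0.14, adjusted p = 0.12), nor without DIV7 replicate 1 or 2. The make-up of this class changed too. At DIV1, 108 of its 116 cells were in cluster 9. In the later libraries, in order, cluster 21 held 418, 335, 323, 309, 151 and 59 cells and cluster 9 held 190, 87, 235, 148, 155 and 25. The unnamed cluster 6, with Neurod6 and Neurod2 among its leading genes, held 1347 DIV1 cells. The part of this in the slope was not tested.

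In the culture as a whole, the collagen total was 557 CPM at DIV1, 1512 and 2356 CPM at DIV3, 2486 and 2223 CPM at DIV5 and 2102 and 2236 CPM at DIV7. Fibroblast-like cells held 2.94% of these UMIs at DIV1 and 66.3% to 81.1% in the later libraries. The DIV1 share leaves out the unnamed cluster 1, which scored best for the fibroblast list. That cluster held 76.0% of Col1a1 and 89.3% of Col3a1 UMIs at DIV1. From DIV3 to DIV7, 9 of 39 collagens rose, where 11.4% of 17433 genes did, and 2 fell (Col2a1 by 1.65 ± 0.33 and Col5a1 by 0.82 ± 0.21 on the log2 scale), where 11.7% did. With the stricter cell filter the Col5a1 difference turned to 0.11 (adjusted p = 0.88). The 9 were Col6a5 (5.70 ± 0.51), Col14a1 (3.60 ± 0.67), Col4a4 (2.18 ± 0.39), Col26a1 (2.08 ± 0.36), Col9a1 (1.75 ± 0.48), Col9a3 (1.73 ± 0.39), Col4a5 (1.10 ± 0.22), Col27a1 (1.06 ± 0.29) and Col18a1 (0.90 ± 0.18). Whole-culture levels mix cell numbers with RNA per cell, which cannot be told apart in these sums. By slope 12 rose, where 15.2% of all genes did, and 1, Col19a1, fell (-0.34 ± 0.10 log2 per day), where 13.7% did. With the block, the slopes of Col19a1 (adjusted p = 0.27), Col8a2 (0.12), Col16a1 (0.071) and Col11a2 (0.086) were lost. Without DIV3 replicate 1 no collagen was called in the change from DIV3 to DIV7, without DIV3 replicate 2 there were 7, without DIV7 replicate 1 there were 7, and without DIV7 replicate 2 there was 1. By slope, 7 were called without DIV7 replicate 2.

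Genes that build, bind or break down collagen were counted from 5 lists. In fibroblast-like cells from DIV3 to DIV7, 13 of 23 fibril-associated and basement membrane partners tested rose and none fell, with a median log2 difference of 0.98. They included Dcn (2.23 ± 0.26), Fmod (2.14 ± 0.28) and Ogn (1.99 ± 0.33), small proteoglycans that bind collagen fibrils, and Dcn is itself a marker of the cluster whose share grew. Of 10 propeptide cleavage and crosslinking genes, 4 rose and none fell, among them the procollagen C-proteinase Bmp1 (1.74 ± 0.20), its enhancer Pcolce (1.06 ± 0.20) and the N-proteinase Adamts2 (1.53 ± 0.31). Of 22 chain modification and folding genes, 1 rose, the prolyl 3-hydroxylase family member P3h3 (1.71 ± 0.24), and 1 fell, the collagen chaperone Fkbp10 (-0.72 ± 0.20), and Crtap was not called (0.61 ± 0.19). Collagen receptors had 3 of 10 higher, Mrc2 (1.45 ± 0.23), Itga1 (1.93 ± 0.33) and Ddr2 (0.70 ± 0.20), and none lower. Of 12 breakdown genes, 4 rose and 1 fell, with the protease Fap at 3.89 ± 0.41, Reck at 2.29 ± 0.33 and the protease inhibitor Timp1, which leads the Crct1-led cluster, at -1.43 ± 0.23. Of all genes tested in these cells, 11.7% rose and 11.9% fell, so the chain modification and folding genes had fewer calls than the background in both directions. The median log2 differences of these 4 lists, in the order given, were 0.56, -0.10, 0.61 and 0.49, beside 0.04 over all genes.

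Against mural-like cells, most of the called genes of 4 lists were higher in mural-like cells. Of 10 cleavage and crosslinking genes, 2 were higher and 7 lower in fibroblast-like cells, with Lox, the lysyl oxidase that crosslinks fibrils, at 1.91 ± 0.15, Bmp1 at -2.38 ± 0.19 and Loxl2 at -0.93 ± 0.13. Of 21 chain modification genes, 1 was higher and 6 lower, led by the prolyl 4-hydroxylase subunit P4ha2 (-2.46 ± 0.18), the lysyl hydroxylase Plod2 (-1.15 ± 0.15) and Tmem38b (-1.93 ± 0.31). Of 22 partners, 3 were higher and 10 lower, with Lum at 5.998 ± 0.59, Lamb2 at -1.64 ± 0.20 and Hspg2 at -0.95 ± 0.13. Of 9 receptors, 0 were higher and 3 lower (Itgb1, -1.37 ± 0.13, Ddr1, -1.19 ± 0.18, and Itga11, -1.28 ± 0.43), and of 9 breakdown genes, 2 were higher (Timp1, 1.68 ± 0.15, and Ctsk, 0.70 ± 0.21) and 0 lower, with Mmp11 at -0.62 ± 0.22 not called. Of all genes in this comparison 11.2% were higher and 12% lower, and the 1 chain modification gene and 0 receptors that were higher lie below that share. The median log2 differences of these 5 lists, in the order given, were -1.06, -0.17, -0.66, -0.48 and -0.05, beside 0.02 over all genes.

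In radial glia- or astrocyte-like cells from DIV3 to DIV7, 3 of 11 cleavage and crosslinking genes rose (Loxl2 by 2.38 ± 0.31, Pxdn by 1.70 ± 0.32 and Bmp1 by 1.01 ± 0.24). In the same cells 2 of 23 chain modification genes fell and 0 rose, P3h4 (-1.44 ± 0.31) and Ppib (-1.34 ± 0.32), and 2 of 21 partners rose, Fmod (1.77 ± 0.32) and Bgn (2.29 ± 0.49). Of 12 receptors 1 rose and 0 fell, and of 8 breakdown genes 1 rose and 1 fell. Of all genes in this class 7.47% rose and 8.3% fell, so the 2 of 23 chain modification genes that fell are near the background. The medians of these 5 lists in radial glia- or astrocyte-like cells, in the order given, were 0.38, -0.07, 0.00093, 0.35 and 0.18, beside 0.06 over all genes. Choroid plexus-like cells had 1 riser among 23 chain modification genes (Plod1, 1.33 ± 0.36), 1 among 16 partners (Bgn, 1.59 ± 0.39) and 0 of 8, 8 and 7 in the other 3 lists, and none that fell, where 3.29% of all genes rose and 3.66% fell, so 1 of 23 is near the background.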

How the data were processed

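Single-cell RNA was measured in 7 libraries of cultured mouse hippocampal cells, and every library was grouped by the day in its label. The deposited matrices hold raw UMI counts per gene and cell barcode; per the submitters' processing notes they were made with Cell Ranger 4.0.0 and the build is mm9, while the file headers give software version 3.0.2, and no file gives the annotation. The total UMI counts were 36226566 to 114119537 per library, and the deposited counts were used unscaled. Cells with 500 or more genes and no more than 10% of UMIs from mitochondrial genes entered. They were clustered in scanpy 1.11.5 (2000 variable genes without collagens, 30 components, 15 neighbours, Leiden resolution 1, seed 1). A cluster took the name of its best-scoring marker list when that score was at least 0.25 and 1.25 times that of the next class. At least 3 of the list's markers also had to reach 50 CPM. No other list could have more markers among the cluster's 10 leading genes. A cluster with 3 or more cycling markers among those 10 was named cycling. Clusters that failed these rules were left unnamed.

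Counts were summed per class and library where at least 20 cells were present. Sums were tested in edgeR 4.0.16 (R 4.3.3) with TMM scaling, its filter on low counts and the robust quasi-likelihood test, adjusted by the Benjamini-Hochberg method over all genes tested. The change is DIV7 minus DIV3 in a fit with a mean per day, the slope is log2 per day, and fibroblast-like minus mural-like has the library as a block. Levels are CPM without TMM. Each molecule is tagged once, so levels were not scaled by length and are not compared between genes. The test was checked on simulated counts. Alternatives were DESeq2 1.42.0, other scaling, no filter on low counts, each library left out, doublet removal, a stricter cell filter, another resolution, collagens among the variable genes, and, added after the data were seen, the Dcn- and Mgp-led cluster alone and glia without the Lcn2-led cluster. Scrublet called 126 of 26709 cells (0.472%), too few to have worked, so doublets were kept, and an alternative removed the 908 cells of highest score.

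Libraries with the same replicate number in their titles deviated together in every pair tested. The main fits of change and slope left the replicate number out, so their p-values take no account of such pairing. It entered as a block only in an alternative fit. The correlations over genes were 0.306, 0.146 and 0.361 in fibroblast-like cells, 0.166, 0.113 and 0.707 in radial glia- or astrocyte-like cells, 0.117, 0.147 and 0.469 in choroid plexus-like cells, 0.371, 0.160 and 0.307 in glutamatergic neuron-like cells, 0.352, 0.184 and 0.458 in the whole culture, and 0.259 for the 1 pair of ciliated-like cells. The members and lists were chosen with earlier results of these data known. Genes were named when they reached 20 CPM in any class or passed a test, and list genes when they were among the 3 with the smallest p. Mural-like cells were not tested by day.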

Additional observations from a re-analysis of the deposited data

Results flagged for a closer look

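Col12a1 moved in opposite directions in fibroblast-like and glutamatergic neuron-like cells from DIV3 to DIV7. In fibroblast-like cells both DIV7 libraries were above both DIV3 libraries, with a log2 difference of 1.16 ± 0.21 (edgeR, adjusted p = 0.010). In glutamatergic neuron-like cells both DIV7 libraries were below both DIV3 libraries, at -0.57 ± 0.24 (adjusted p = 0.18). The gap between the log2 differences was 1.73, and this gap was not tested.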

How the results depend on the processing

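The number of collagens called from DIV3 to DIV7 moved by over 1.5 times under these settings. In fibroblast-like cells it was 3 in the Dcn- and Mgp-led cluster alone (2 by slope). In radial glia- or astrocyte-like cells it was 9 with DESeq2, 3 at Leiden resolution 2 and 3 without the Lcn2-led cluster. In choroid plexus-like cells it was 7 with the replicate block and 1 with the stricter cell filter, and by slope 1 with that filter and 3 at resolution 2. In ciliated-like cells it was 9 with DESeq2 and 10 with the stricter filter, and 0 by slope with the replicate block. In glutamatergic neuron-like cells it was 2 without the filter on low counts, and by slope 0 with the replicate block, 0 with the stricter cell filter and 4 with collagens among the variable genes. Col5a1 in the whole culture reversed with the stricter cell filter, to 0.11 (adjusted p = 0.88). The cause was not tested. Leaving out each library in turn gave 5 to 19 calls in fibroblast-like, 0 to 6 in radial glia- or astrocyte-like, 0 to 6 in choroid plexus-like, 12 to 20 in ciliated-like and 0 to 2 in glutamatergic neuron-like cells, 0 to 12 in the whole culture and 12 to 16 against mural-like cells. A day left with 1 library was assumed to vary like the other days. By slope, in the same order, it gave 6 to 16, 2 to 8, 1 to 5, 4 to 12, 0 to 1 and, in the whole culture, 7 to 14. With the replicate block, 87 of 109 named results had the same call, 20 were lost and 2 gained. Outside the ciliated slopes those changes are given in the report. The named results are the collagens called in the main fits, and Col1a1 and Col4a1 in fibroblast-like cells. Calls that the block added for other collagens, as in choroid plexus-like cells, are not among the 2 gained. With the stricter cell filter, 20 of 27 collagens had their largest share in fibroblast-like cells, against 14. Not run were tests of mural-like cells by day and of their difference from fibroblast-like cells, since they reached 20 cells in no DIV7 library, and in ciliated-like cells the change without DIV3 replicate 1, with only the DIV3 and DIV7 libraries, and both measures at resolution 2.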
